A study of Mus musculus with 36 samples.

Results

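Lungs of A/J mice were compared with lungs of C3H mice after both had received NNK, a nitrosamine carcinogen of tobacco smoke. The comparison used 16 of the study's 36 arrays, chosen by their labels alone: 8 arrays of NNK-treated A/J lungs and 8 of NNK-treated C3H lungs, with 2 arrays per strain at each of weeks 3, 6, 9 and 12 after exposure. Both strains had received a weekly NNK injection of 100 mg/kg for 4 weeks, and lungs were excised before mature tumours had formed. A further 16 arrays, 8 of untreated A/J and 8 of untreated C3H lungs from the same weeks, gave the strain difference without carcinogen that stands beside each result. Both strains were given by name only, with no substrain, age or sex, and no transgene or other allele was named in any group. Total RNA from whole lung was hybridised to arrays with 1 summarised intensity per probe set, so each level below is a normalised log2 intensity, log2(value + 16), of 1 probe set per gene. Whether the 2 arrays of a strain and week came from separate animals was not stated, so the p-values cover only variation among these arrays, part of which may be technical.

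NNK is activated by cytochrome P450 enzymes to species that methylate and pyridyloxobutylate DNA, and lung adenomas follow in susceptible mice. A/J is the classic susceptible strain for such tumours and C3H is more resistant, and a large share of that difference has been mapped to the Pas1 locus. Alveolar type 2 and club cells are the cells from which these tumours are thought to arise, while ciliated cells, macrophages and blood vessels make up much of the surrounding lung.

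The strain difference was broad and mostly small. Of 14953 genes tested, 7842 (52.4%) differed between NNK-treated A/J and C3H lungs at an adjusted p under 0.05 in limma, a linear model with week as a block; 3435 (23%) were higher in A/J and 4407 (29.5%) were lower. The median size of a called difference was 0.22 on the log2 scale, and 444 genes (2.97%) differed by at least 1.5-fold, 200 (1.34%) higher and 244 (1.63%) lower in A/J. At least 2-fold was reached by 97 genes, 52 higher and 45 lower. The lowest array of one strain lay above the highest of the other for 2349 genes (15.7%), with A/J above for 7.1% and below for 8.61% of those tested. In untreated lungs 7035 genes (47%) differed, 2675 (17.9%) higher and 4360 (29.2%) lower in A/J, and 502 (3.36%) by at least 1.5-fold. Of the genes called with NNK, 68.3% were also called in untreated lungs in the same direction, which was 76.1% of the untreated calls; 14 genes were called in both with opposite directions. Among the 444 genes past 1.5-fold with NNK the share was 97.1% (431 genes). Across all genes tested the differences with NNK and without correlated at Pearson r = 0.88 and Spearman rho = 0.80, a description across genes that are not independent replicates. In all, 46 genes (0.308%) passed the test of whether the strain difference itself differed with NNK, and these are described below.

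The strains were the main axis of all 36 arrays of the study, treated and untreated together. The first principal component held 41.8% of the variance, with scores of 12.6 to 21.8 in A/J and -17.6 to -14.1 in C3H arrays. Deposited intensities of the 16 NNK arrays had similar medians, 297 to 328 per array. Lung identity was clear in the NNK-treated lungs of both strains. The type 2 marker Sftpc lay at 13.95 to 14.01 in A/J and 13.90 to 14.05 in C3H. The type 1 marker Ager lay at 13.25 to 13.41 in A/J and 13.06 to 13.40 in C3H. The female-expressed gene Xist lay at 12.65 to 12.82 in A/J and 12.40 to 12.71 in C3H. 2 arrays stood apart within their group. Array 1 of NNK-treated A/J at week 6 had the highest mean over the proliferation list (9.46) and the neutrophil list (9.30) and the lowest over the B and plasma cell list (8.39). Array 1 of NNK-treated C3H at week 3 had the highest mean over the mesothelial list (11.10), and the acute-phase gene Saa3 was high in both C3H arrays of that week, at 13.33 and 11.76 against a median of 7.80 for the group. The fat list averaged 10.47 and 9.94 in both A/J arrays of week 12 and 7.91 to 8.88 in the other 14 NNK arrays. Without array 1 of NNK-treated A/J at week 6 and array 1 of NNK-treated C3H at week 3, 7483 genes were called, 3211 higher and 4272 lower in A/J. No processing date, batch or array lot was given in the sources used here, and an array probe can bind the 2 strains' transcripts unequally where their sequences differ, so strain, batch and probe binding cannot be told apart in a level.

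**Figure D1:**
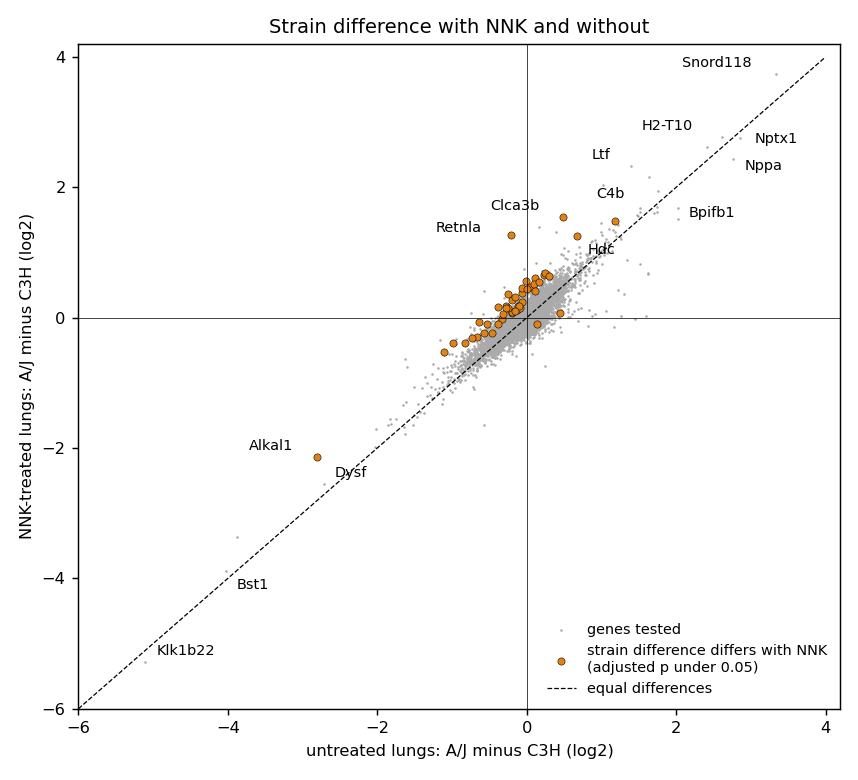
Each point is 1 of 14953 genes, with its A/J minus C3H difference (log2) in untreated lungs on the horizontal axis and in NNK-treated lungs on the vertical axis. The points follow the dashed line of equal differences from Klk1b22 at the lower left to Snord118 at the upper right, and of the 46 orange genes 44 lie above that line.

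The genes that stood highest in NNK-treated A/J lungs were mostly ones that also separated untreated lungs. Nptx1, which encodes the secreted neuronal pentraxin 1, had lowest, median and highest levels of 10.02, 10.36 and 10.67 in NNK-treated A/J lungs, against 7.10, 7.67 and 7.94 in NNK-treated C3H lungs. All 8 A/J arrays lay above all 8 C3H arrays, with a difference of 2.76 ± 0.069 (SE; 6.76-fold; limma, adjusted p = 3.48e-13) and 2.86 ± 0.093 in untreated lungs. H2-T10, a non-classical MHC class I gene of a region in which the strains carry different haplotypes, had levels of 10.96, 11.28 and 11.52 in NNK-treated A/J lungs, against 8.32, 8.57 and 8.64 in NNK-treated C3H lungs. Its groups did not overlap either, and its difference was 2.77 ± 0.059 after NNK and 2.61 ± 0.11 untreated; it has close paralogues, so its probe set may read more than 1 of them. C4b, a complement component with the near-identical neighbour C4a, differed by 1.68 ± 0.10 with NNK and 1.52 ± 0.079 without, and its levels ran from 11.21 to 11.90 in NNK-treated A/J lungs and 9.72 to 10.33 in NNK-treated C3H lungs.

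Ltf encodes lactoferrin, an iron-binding antimicrobial protein of airway secretions and neutrophil granules, and had levels of 9.48, 10.30 and 10.83 in NNK-treated A/J lungs, against 7.30, 8.01 and 8.41 in NNK-treated C3H lungs. The groups did not overlap, and the difference was 2.33 ± 0.19 after NNK (5.02-fold, adjusted p = 1.51e-07) and 1.40 ± 0.20 in untreated lungs, but the test between these differences gave 0.92 ± 0.30 at an adjusted p of 0.152. Bpifb1, a secreted airway protein of the same innate defence layer, was 10.78 ± 0.40 in A/J and 9.10 ± 0.39 in C3H after NNK (SD, n = 8 each), a difference of 1.68 ± 0.14 against 2.02 ± 0.21 untreated. 5 of the 12 highest were small non-coding RNA genes. The small nucleolar RNAs Snord118, Snora33, Snord87 and Snora73a, which guide or process ribosomal RNA, differed by 3.74 with NNK (3.34 untreated), 2.62 with NNK (2.41 untreated), 1.94 with NNK (1.76 untreated) and 1.69 with NNK (1.74 untreated), and the vault RNA Vaultrc5 by 2.17 with NNK (1.64 untreated). Their A/J and C3H arrays did not overlap after NNK. As a class, chosen after these values had been seen, 29 of 41 tested genes annotated as snoRNA were higher and 1 was lower in A/J after NNK, with a median of 0.43, against 26 higher and 0 lower and a median of 0.31 in untreated lungs. Among all genes tested, 23% were higher and 29.5% lower in A/J after NNK. How fully short RNAs were recovered from each lung was not measured.

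2 genes of other tissues completed the list. Nppa encodes the natriuretic peptide of atrial muscle, which also sheathes the pulmonary veins of mice, and had levels of 7.88, 9.70 and 11.06 in NNK-treated A/J lungs, against 6.59, 6.97 and 7.53 in NNK-treated C3H lungs, a difference of 2.43 ± 0.38 against 2.77 ± 0.41 untreated. Ucp1, the uncoupling protein of brown fat, had levels of 7.10, 8.59 and 11.87 in NNK-treated A/J lungs, against 6.48, 6.80 and 7.39 in NNK-treated C3H lungs; its groups overlapped, and its weekly differences were 1.25, 1.48, 1.04 and 4.36 at weeks 3, 6, 9 and 12. With NNK 23% of all genes tested were higher and 29.5% lower in A/J. Over the whole cardiac muscle list, 7 of 12 genes were higher and 2 lower in A/J, and the list mean per array ran from 9.59 to 10.68 in A/J and 9.57 to 9.96 in C3H. Among these, Myh7 and Myl7 were higher by 0.84 and 1.24, while the myosin light chain Myl3 was lower by a difference of -0.87 (0.66, 1.26 and -0.72 untreated). The NNK-treated C3H levels of Nppa, Ucp1 and Snora33 all lay below the filter level of 7.54, so these genes passed the filter through A/J alone. The sizes of their differences may be limited by the background of the array. How much heart or vein muscle and fat each lung sample held was not measured, and its part in these values was not tested.

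The largest difference of all ran the other way. Klk1b22, a kallikrein-family serine protease, had lowest, median and highest levels of 5.18, 5.39 and 5.58 in NNK-treated A/J lungs, against 10.40, 10.69 and 10.96 in NNK-treated C3H lungs. Every A/J array lay far below every C3H array, and the difference of -5.29 ± 0.066 (adjusted p = 3.4e-17) stood beside -5.10 ± 0.17 in untreated lungs. Its A/J levels lay below the filter level of 7.54, so it passed the filter through C3H alone. The size of its difference may be limited by the background of the array. Klk1b genes are near-identical copies, so the probe set may read several of them. Bst1, the cell-surface ADP-ribosyl cyclase CD157 of stromal and myeloid cells, had levels of 6.02, 6.59 and 7.12 in NNK-treated A/J lungs, against 10.34, 10.48 and 10.86 in NNK-treated C3H lungs. It differed by -3.89 ± 0.11 with NNK and -4.02 ± 0.13 without, its groups did not overlap, and all its NNK-treated A/J levels lay below 7.54 as well.

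Dysf encodes dysferlin, a membrane-repair protein that A/J mice are known to lack through a retrotransposon insertion in the gene, and had levels of 6.62, 6.98 and 7.11 in NNK-treated A/J lungs, against 9.31, 9.50 and 9.55 in NNK-treated C3H lungs. The difference of -2.55 ± 0.044 after NNK (-2.71 ± 0.11 untreated) ran in the direction of that known allele, and all 8 A/J arrays lay below all 8 C3H arrays and below 7.54. Hc, which encodes complement C5 and carries a null allele in A/J, was 11.42 ± 0.17 in A/J and 12.08 ± 0.16 in C3H after NNK (SD, n = 8 each), a difference of -0.66 ± 0.082 against -0.96 ± 0.094 untreated. Alkal1, a secreted ligand of the receptor tyrosine kinases Alk and Ltk, differed by -2.14 ± 0.10 after NNK and -2.81 ± 0.08 untreated. Its untreated A/J levels ran from 6.88 to 7.60, mostly below 7.54. The sizes of its untreated difference and of its interaction, given below, may therefore be limited by the background of the array. The transporter gene Abca17 differed by -1.99 with NNK (-2.02 untreated), the orphan receptor gene Gpr141b by -1.79 with NNK (-1.63 untreated), and the nuclease gene Dnase1l3 by -1.63 with NNK (-1.82 untreated). Sfmbt2, a Polycomb-group gene, differed by -1.68 with NNK (-1.64 untreated) and Nme7, a nucleoside diphosphate kinase family gene of cilia and centrosomes, by -1.65 with NNK (-1.86 untreated). The zinc finger genes Zfp605 and Zfp985 differed by -1.71 with NNK (-2.02 untreated) and -1.65 with NNK (-1.52 untreated). The NNK-treated A/J levels of both zinc finger genes lay below 7.54, so the sizes for Dysf, Zfp605 and Zfp985 carry the same limit as that of Klk1b22. The groups of all of these were apart after NNK; those of the immunoglobulin segment Igkv4-91 overlapped, with levels of 6.50, 7.18 and 8.81 in NNK-treated A/J lungs, against 7.27, 11.05 and 13.25 in NNK-treated C3H lungs. Its difference was -3.37 ± 0.55 with NNK and -3.88 ± 0.42 without, and antibody segments are used unequally by each animal's B cells.

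**Figure D2:**
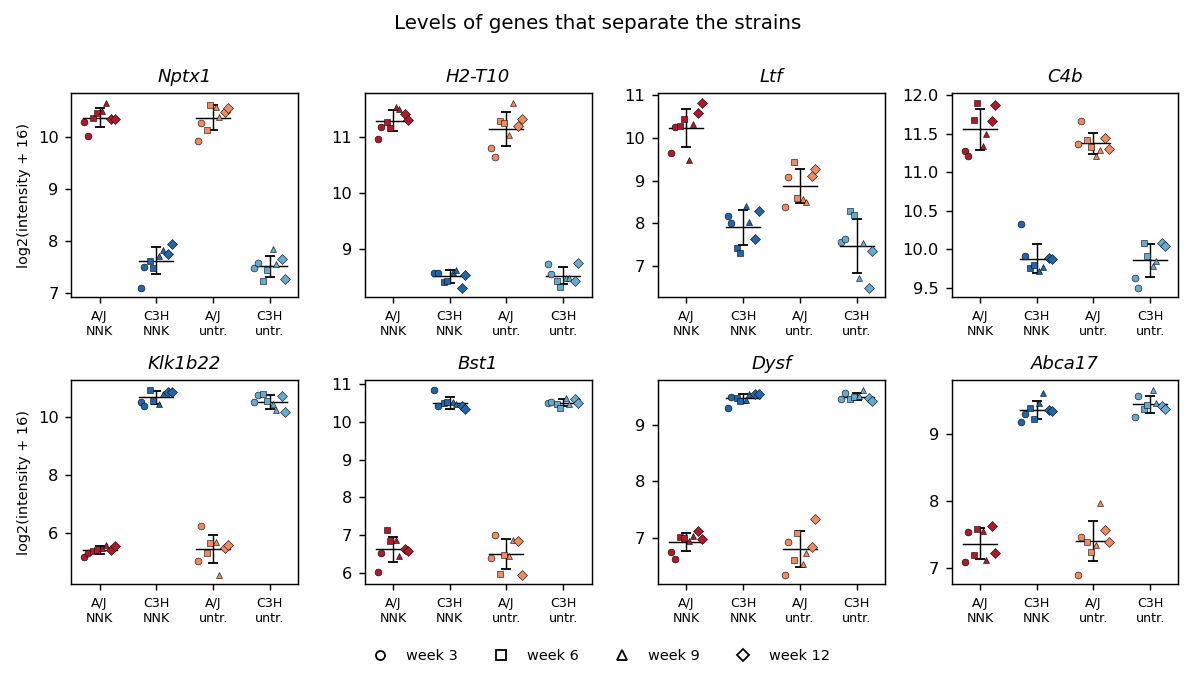
Normalised level (log2(intensity + 16)) of 8 genes in each array, with NNK-treated A/J left of NNK-treated C3H, followed by untreated A/J and untreated C3H; marker shape gives the week, and lines and bars give the mean and SD of 8 arrays. In every panel the A/J and C3H arrays stay apart with NNK, and the Ltf difference was 2.33 with NNK against 1.40 untreated.

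Of the 444 genes past 1.5-fold after NNK, 13 were not called in untreated lungs, and they are named here after their values had been seen. They were the airway surface protein Bpifa1, Retnla, the fatty acid binding protein Fabp5, the lipid transporter Mfsd2a, Aqp7, Cox8b and Gpd1, the chemokine Cxcl9, Ier2, Snora69, Alb, Per1 and Prp2. The fat list averaged 10.47 and 9.94 in the NNK-treated A/J arrays of week 12, against 7.91 to 8.88 in the other NNK arrays. The part of fat in the values of these 13 genes, such as Aqp7, Cox8b and Gpd1, was not tested. Bpifa1, a surfactant-like protein secreted by airway epithelium, had levels of 10.40, 11.67 and 12.36 in NNK-treated A/J lungs, against 9.21, 10.31 and 10.999 in NNK-treated C3H lungs, which overlapped. Its difference was 1.40 ± 0.24 after NNK (adjusted p = 0.000216) and 0.17 ± 0.35 untreated (adjusted p = 0.717), and the test between them gave 1.23 ± 0.46 at an adjusted p of 0.201. Fabp5 had levels of 10.23, 10.39 and 10.66 in NNK-treated A/J lungs, against 9.49, 9.77 and 10.17 in NNK-treated C3H lungs, with a difference of 0.60 ± 0.066 after NNK and 0.11 ± 0.049 untreated. Its 8 A/J arrays lay above all C3H arrays after NNK, and the test between the differences gave 0.50 ± 0.084 (adjusted p = 0.0144). Of the 13 genes, only Fabp5 and Retnla passed that test.

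The test of the strain difference with NNK against that without asked which genes separate the strains more, or less, once carcinogen is given; it equals the NNK change in A/J minus that in C3H. It called 46 genes, of which 44 (0.294% of those tested) had a more positive A/J minus C3H difference after NNK and 2 (0.0134%) a more negative one. Over all genes tested 58.7% had a positive value, with a median of 0.022. Of the 46, 36 were also called between NNK-treated strains and 33 between untreated strains, and the difference was larger in size with NNK for 23 and smaller for 23. Retnla, a resistin-like molecule secreted by alternatively activated macrophages and airway epithelium, gave the largest value. Its levels were 11.39, 11.96 and 12.44 in NNK-treated A/J lungs, against 9.93, 10.55 and 11.49 in NNK-treated C3H lungs, which overlapped at their edges, and averaged 10.11 ± 0.42 in untreated A/J and 10.31 ± 0.68 in untreated C3H lungs (SD, n = 8 each). The strain difference was 1.26 ± 0.14 after NNK and -0.20 ± 0.24 untreated, so the interaction was 1.47 ± 0.30 (adjusted p = 0.0294). The difference held its sign in each of the 4 weeks after NNK (0.92, 1.47, 1.07 and 1.58) and not in the untreated ones (0.49, -0.97, 0.43 and -0.75).

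Clca3b, related to secreted regulators of chloride channels that mark mucous airway cells, had levels of 7.96, 8.86 and 9.76 in NNK-treated A/J lungs, against 7.23, 7.32 and 7.59 in NNK-treated C3H lungs. The groups did not overlap after NNK, and the difference was 1.55 ± 0.19 against 0.48 ± 0.11 untreated (interaction 1.06 ± 0.24, adjusted p = 0.0454). C3H levels of Clca3b lay mostly below the filter level of 7.54, with untreated ones at 6.90 to 7.46. It therefore passed the filter through A/J, above all with NNK, and array background may limit the sizes of its differences. The interaction call was lost in 24 of 32 fits that left out 1 array. Hdc, the enzyme that makes histamine, had levels of 10.26, 10.71 and 10.91 in NNK-treated A/J lungs, against 9.17, 9.44 and 9.58 in NNK-treated C3H lungs, again without overlap. Its difference was 1.25 ± 0.072 with NNK and 0.67 ± 0.078 without (interaction 0.58 ± 0.11, adjusted p = 0.0249). Pifo, a gene of the ciliary base, differed after NNK by 0.56 ± 0.066 and did not pass the test in untreated lungs, where it stood at -0.012 ± 0.083 (interaction 0.57 ± 0.11, adjusted p = 0.0266). In other genes the C3H excess narrowed after NNK. Alkal1 had levels of 7.43, 7.75 and 8.49 in NNK-treated A/J lungs, against 9.91, 9.998 and 10.25 in NNK-treated C3H lungs, and averaged 7.24 ± 0.25 in untreated A/J and 10.04 ± 0.086 in untreated C3H lungs; its interaction was 0.67 ± 0.13 (adjusted p = 0.0288). C6, a component of the complement membrane attack complex, differed by -0.39 ± 0.056 after NNK and -0.98 ± 0.087 untreated (interaction 0.59 ± 0.11, adjusted p = 0.022). Chil3, the chitinase-like protein Ym1 of macrophages, differed by -0.53 ± 0.052 after NNK and -1.10 ± 0.11 untreated (interaction 0.58 ± 0.13, adjusted p = 0.0473). On the negative side, the collagen gene Col6a4 differed by 0.079 ± 0.057 after NNK and 0.45 ± 0.046 untreated, and the sphingosine kinase gene Sphk1 by -0.10 ± 0.036 and 0.14 ± 0.036 (adjusted p = 0.0288 and 0.0291 for the interaction).

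These 46 calls depended on which arrays were used. Without week 12 limma called 0 genes (2307 at an unadjusted p under 0.05), and without week 6, or without the arrays that stood apart together with both untreated A/J arrays of week 6, it called 2. Leaving out a single array gave 11 calls (without untreated A/J week 6 array 1) to 444 (without untreated A/J week 3 array 2), with fewer than 46 by over 1.5 times in 20 of 32 such fits and more by over 1.5 times in 3. 10 of the 46 were called in each of the 32: C6, Hdc, Fabp5, Cpn1, Klk13, Muc4, Phlda3, Sc5d, Stk32a and Tlcd4, named after their values had been seen. Others held less often: Retnla was called in 23 of the 32, Alkal1 in 27, Pifo in 28, Ccl8 in 14 and Chil3 in 6. Cpn1, the catalytic subunit of carboxypeptidase N, differed by 0.46 with NNK (-0.06 untreated), and the membrane mucin gene Muc4 by 0.31 with NNK (-0.15 untreated). Both untreated A/J arrays of week 6 carried skin genes, with list means of 10.13 and 10.76, against 7.89 to 8.02 in the NNK-treated A/J arrays; their part in the untreated differences was not tested. Untreated A/J week 3 array 2 was unlike its group as well. Its mesothelial list mean was 10.86, against 9.59 to 10.09 in the other untreated arrays, and Arg1 was 10.19, against 7.32 to 7.63 in other untreated A/J arrays. It was kept in the fit without the arrays that stood apart.

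**Figure D3:**
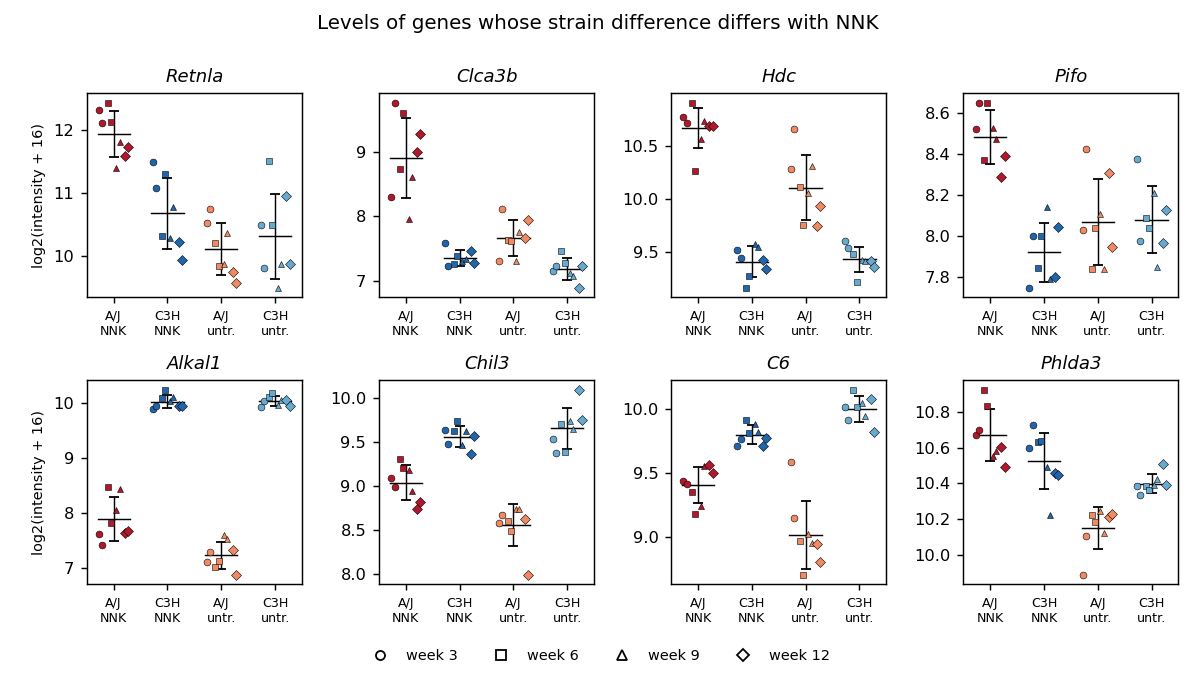
Normalised level (log2(intensity + 16)) in each array of 8 genes whose strain difference differed with NNK, with NNK-treated A/J and C3H on the left and untreated A/J and C3H on the right; marker shape gives the week, and lines and bars give the mean and SD of 8 arrays. In A/J the NNK mean lies above the untreated mean for Retnla (11.94 against 10.11), Clca3b (8.90 against 7.67) and Phlda3 (10.67 against 10.15), and for Clca3b those A/J arrays overlap.

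14 genes were called in both comparisons with opposite signs, and the 5 with the largest gap were lower in A/J without carcinogen and higher with it. Ccl8, a chemokine for monocytes and other leukocytes, differed by 0.37 ± 0.084 after NNK and -0.25 ± 0.09 untreated, with levels of 7.89, 8.09 and 8.38 in NNK-treated A/J lungs, against 7.43, 7.63 and 8.19 in NNK-treated C3H lungs. Untreated A/J levels of Ccl8 ran from 6.92 to 7.70, mostly below the filter level of 7.54. Array background may therefore limit the size of its untreated difference. Plcd4, a phospholipase C gene, differed by 0.17 ± 0.059 and -0.39 ± 0.083, and Cd59b, an inhibitor of the complement membrane attack complex, by 0.27 ± 0.079 and -0.20 ± 0.052. Phlda1 and Fetub, the gene of the protease inhibitor fetuin B, differed by 0.18 ± 0.05 and 0.25 ± 0.075 after NNK, against -0.27 ± 0.077 and -0.19 ± 0.063 untreated. The groups overlapped in all 5, and the interaction passed for the first 4 of them (adjusted p = 0.034, 0.0249, 0.034 and 0.034) but not for Fetub (0.0507). The NNK call of Plcd4, Cd59b, Phlda1 and Fetub was lost without week 12 (adjusted p of up to 0.12 over the alternatives). That of Plcd4 and Cd59b was also lost without week 6. That of Plcd4 and Fetub was also lost with 18 group means. Plcd4 further lost it without quantile normalization, without the arrays that stood apart and in 4 of 16 fits that left out 1 array.

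Genes of ciliated cells were the list with the largest share higher in A/J after NNK among lists of at least 10 genes. Ciliated cells carry motile cilia that move mucus, and Foxj1 with factors of the RFX family switches on their genes; RFX factors bind a motif called the X-box. Of the 23 ciliated-cell genes tested, 20 were higher and 1 lower in A/J after NNK, and the median strain difference was 0.38 against 0.15 in untreated lungs, where 13 were higher and 0 lower, beside 23% and 29.5% of all genes higher and lower with NNK. All genes tested had a median of -0.023 with NNK and -0.026 untreated. 21 of the 23 had a larger A/J minus C3H value with NNK than without, against 58.7% of all genes, and 1 of them, Lrrc23, passed the test of that difference. In bulk lung, fewer cells of a type and less RNA per cell cannot be told apart.

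The promoter windows of 3 cilia genes described here are shown because members of the list moved together; each is 300 bases around the annotated start from RefSeq (GRCm38.p6), 5′ to 3′ on the gene's strand, with capitals marking matches to the X-box core GTTGCC on either strand (GGCAAC on the strand shown). 
Lrrc23 (chr6:124779678-124779977, minus strand): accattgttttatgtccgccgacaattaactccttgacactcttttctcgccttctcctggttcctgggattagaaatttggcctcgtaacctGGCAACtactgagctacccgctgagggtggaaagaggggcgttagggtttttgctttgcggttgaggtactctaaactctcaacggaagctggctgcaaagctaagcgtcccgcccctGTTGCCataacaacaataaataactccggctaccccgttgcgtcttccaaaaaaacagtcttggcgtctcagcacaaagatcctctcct
Dynlrb2 (chr8:116504765-116505064, plus strand): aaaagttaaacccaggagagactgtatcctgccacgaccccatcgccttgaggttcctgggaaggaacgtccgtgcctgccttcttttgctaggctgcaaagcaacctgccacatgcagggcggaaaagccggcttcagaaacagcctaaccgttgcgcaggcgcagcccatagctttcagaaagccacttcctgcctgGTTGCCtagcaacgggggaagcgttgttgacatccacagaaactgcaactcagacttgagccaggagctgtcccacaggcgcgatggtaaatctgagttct
Pifo (chr3:106001448-106001747, minus strand): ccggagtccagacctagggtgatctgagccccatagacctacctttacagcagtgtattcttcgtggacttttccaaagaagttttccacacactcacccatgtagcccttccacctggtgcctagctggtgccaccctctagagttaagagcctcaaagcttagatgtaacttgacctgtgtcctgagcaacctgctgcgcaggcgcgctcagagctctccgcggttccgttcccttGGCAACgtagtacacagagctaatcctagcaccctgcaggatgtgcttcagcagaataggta
 Lrrc23 had 2 matches and Dynlrb2 and this window of Pifo 1 each. A second Pifo window had 0, and Pifo is a cilia gene outside the list. A match was found for 10 of 19 list members with a window (52.6%), against 14.8% of the 11825 tested genes with one; this describes letters only, and no binding was measured.

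Foxj1 itself, the master regulator of motile cilia, had levels of 9.47, 9.62 and 9.76 in NNK-treated A/J lungs, against 8.95, 9.09 and 9.18 in NNK-treated C3H lungs. The groups did not overlap, and its difference was 0.54 ± 0.042 after NNK (adjusted p = 9.78e-08) against 0.31 ± 0.05 untreated. Dynlrb2, a dynein light chain, had levels of 9.24, 9.62 and 10.01 in NNK-treated A/J lungs, against 8.39, 8.54 and 8.99 in NNK-treated C3H lungs. It differed 2.03-fold, by 1.02 ± 0.11 with NNK and 0.55 ± 0.075 without, and its NNK difference varied over the weeks (1.46, 1.07, 0.36 and 1.18, adjusted p = 0.00344). Lrrc23 and Rsph1, both of the radial spokes that organise ciliary beating, differed by 0.69 ± 0.071 and 0.73 ± 0.075 with NNK and by 0.24 ± 0.057 and 0.45 ± 0.061 without; neither gene's groups overlapped after NNK. For Lrrc23 the interaction was 0.44 ± 0.095 (adjusted p = 0.0378), a call kept in 13 of 32 fits that left out 1 array. The outer-arm dynein genes Dnah5, Dnah9 and Dnah11 differed by 0.49 with NNK (0.20 untreated), 0.28 with NNK (0.13 untreated) and 0.40 with NNK (0.28 untreated). Tppp3 was the member called lower in A/J, by a difference of -0.22 (-0.11 untreated). The mean over the list ran from 9.17 to 9.47 in NNK-treated A/J and 8.78 to 9.12 in NNK-treated C3H arrays, which did not overlap; in untreated lungs it ran from 9.01 to 9.30 in A/J and 8.90 to 9.00 in C3H. Over all alternatives run, 12 to 21 members were called higher, with 21 without the 2 arrays that stood apart.

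**Figure D4:**
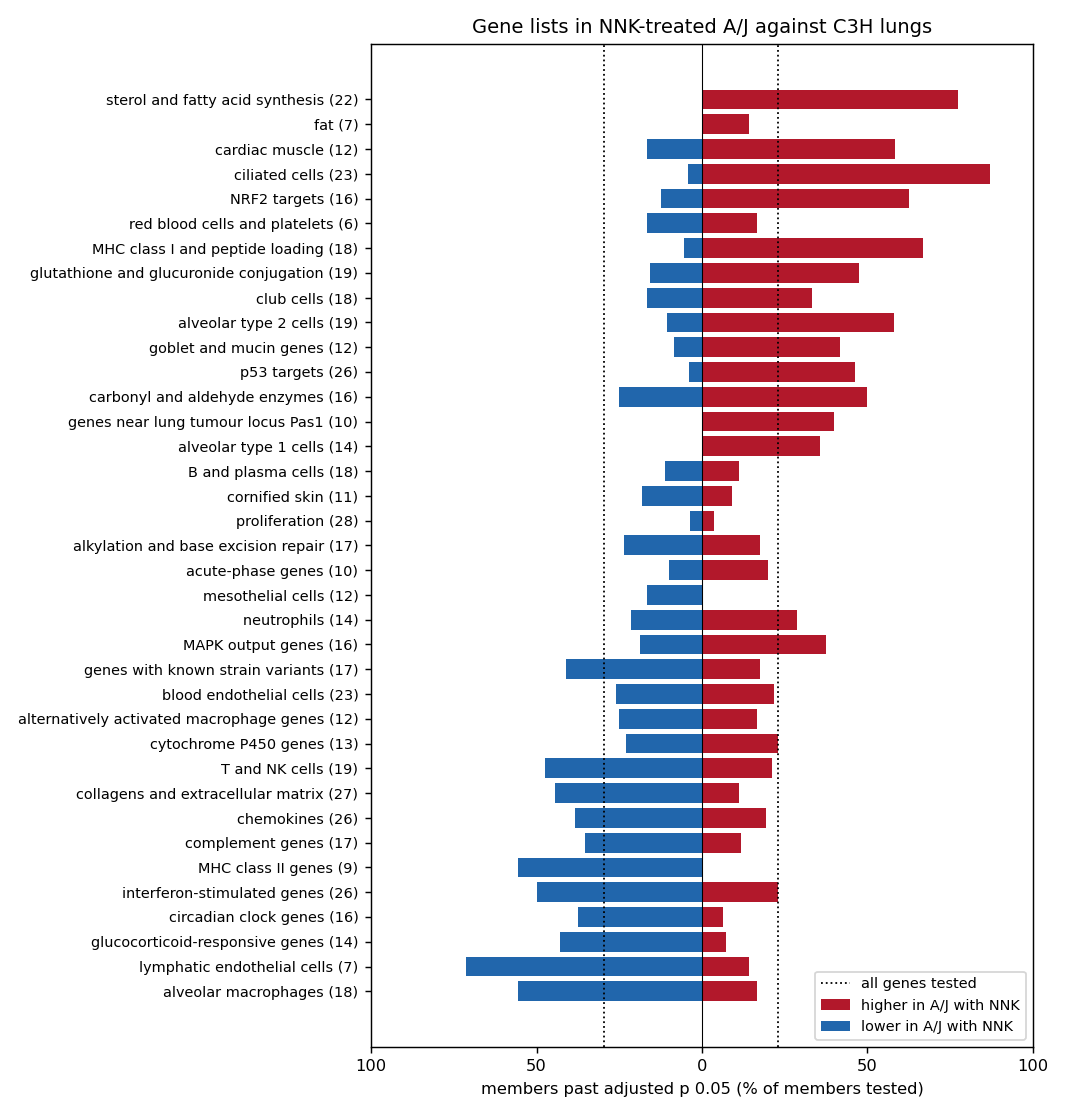
Share of each gene list's tested members (number in brackets) called higher (red, to the right) or lower (blue, to the left) in NNK-treated A/J than in NNK-treated C3H lungs, in percent, with lists ordered by their median difference. Dotted lines mark the shares over all genes tested, 23% higher and 29.5% lower; ciliated-cell and sterol synthesis genes reach furthest to the right and lymphatic endothelial genes furthest to the left.

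Cholesterol and fatty acid synthesis, which supplies membranes and surfactant lipid under the control of SREBP factors, was higher in A/J for 17 of the 22 genes tested. Of the 22 genes of the pathway tested, 17 were higher and 0 lower in A/J after NNK, beside 23% and 29.5% of all genes. The median strain difference was 0.40 against 0.083 in untreated lungs, where 7 were higher and 3 lower. All 22 had a more positive difference with NNK than without, against 58.7% of all genes. Of the 22, 2 genes, Sc5d and Idi1, passed the test of that difference. Insig1, a sterol-induced brake on SREBP, had levels of 11.33, 11.44 and 11.64 in NNK-treated A/J lungs, against 10.27, 10.66 and 10.71 in NNK-treated C3H lungs, without overlap. It differed by 0.85 ± 0.052 after NNK and 0.61 ± 0.058 untreated. In the sterol branch, Idi1, which makes the isoprene unit, differed by 0.52 with NNK (0.093 untreated), Hmgcs1 by 0.46 with NNK (0.19 untreated), Sqle, which forms squalene epoxide, by 0.48 with NNK (0.12 untreated), Lss, which closes the sterol rings, by 0.41 with NNK (0.053 untreated), Cyp51 by 0.42 with NNK (0.073 untreated) and the late desaturase Sc5d by 0.41 with NNK (0.11 untreated). The interaction was 0.30 ± 0.056 for Sc5d and 0.42 ± 0.094 for Idi1 (adjusted p = 0.0236 and 0.0447). Sc5d kept this call in all 32 fits that left out 1 array, and Idi1 in 8 of them. Msmo1, a further sterol demethylase gene outside the list, was among the 46 as well, at 0.63 with NNK (0.29 untreated), and was called in 7 of those 32 fits. In the fatty acid branch, Acly, Acaca, Fasn and Elovl6 differed by 0.40 with NNK (0.26 untreated), 0.62 with NNK (0.38 untreated), 0.57 with NNK (0.28 untreated) and 0.77 with NNK (0.74 untreated). Fdft1 did not pass the test after NNK (0.023) and stood at -0.26 untreated. The fat list was highest in both A/J arrays of week 12, as given above, and its part in the values of the fatty acid branch was not tested.

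Alveolar type 2 cells make surfactant and are a cell of origin of these tumours. Of the 19 type 2 genes tested, 11 were higher and 2 lower in A/J after NNK, beside 23% and 29.5% of all genes. The median strain difference was 0.12 against -0.046 in untreated lungs, where 5 were higher and 7 lower. All 19 had a more positive difference with NNK than without, against 58.7% of all genes. In limma 0 passed the test of that difference, and 14 were under 0.05 unadjusted, beside 2373 of all 14953 genes. Sftpd, the collectin surfactant protein D, had levels of 11.94, 12.26 and 12.47 in NNK-treated A/J lungs, against 11.57, 11.76 and 11.86 in NNK-treated C3H lungs, without overlap, and differed by 0.50 ± 0.062 against 0.16 ± 0.045 untreated (interaction adjusted p = 0.0507). S100g, a calcium-binding protein, and Abca3, the lipid transporter of lamellar bodies, differed by 0.52 with NNK (0.22 untreated) and 0.23 with NNK (0.083 untreated). The defining marker Sftpc did not pass the test, at -0.018 with NNK and -0.046 without, and after NNK neither did Sftpb (-0.041) or Sftpa1 (-0.015). Hc and Lyz1 were the 2 members called lower, at -0.66 and -0.31 (-0.96 and -0.48 untreated). Of 14 type 1 genes, which mark the thin cells of gas exchange, 5 were higher and 0 lower, with a median of 0.04; the anchoring protein gene Akap5 differed by 0.58 with NNK (0.71 untreated).

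NNK damages DNA, and p53 answers damage by raising genes of arrest, repair and death. Of the 26 p53 target genes tested, 12 were higher and 1 lower in A/J after NNK, beside 23% and 29.5% of all genes. The median strain difference was 0.10 against -0.0018 in untreated lungs, where 4 were higher and 6 lower. The members higher in A/J were so by little: none of the 12 reached 1.5-fold. Of the 26, 20 had a more positive difference with NNK than without, against 58.7% of all genes, and Phlda3 passed the test of that difference. Phlda3, an inhibitor of the kinase Akt, had levels of 10.49, 10.64 and 10.93 in NNK-treated A/J lungs, against 10.22, 10.54 and 10.73 in NNK-treated C3H lungs; it differed by 0.14 ± 0.045 with NNK and -0.25 ± 0.041 without (interaction 0.39 ± 0.06, adjusted p = 0.00442). Trp53inp1, a cofactor of p53, the nuclease gene Aen and Dglucy differed by 0.29 with NNK (0.14 untreated), 0.26 with NNK (0.12 untreated) and 0.25 with NNK (0.0059 untreated). The death receptor genes differed in opposite directions, Eda2r at 0.44 with NNK (0.13 untreated) and Fas at -0.42 with NNK (-0.36 untreated); the Fas groups did not overlap, with 9.46 to 9.80 in NNK-treated A/J lungs and 9.84 to 10.27 in NNK-treated C3H lungs. Ccng1, cyclin G1, differed by 0.11 ± 0.039 with NNK (adjusted p = 0.0223) and -0.073 ± 0.041 without, a call that was lost without week 6, without week 12 and without the arrays that stood apart (adjusted p of up to 0.16). Psrc1 did not pass the test (0.10 ± 0.073, adjusted p = 0.274).

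2 windows of this list with a match to the p53 binding decamer are shown, from RefSeq (GRCm38.p6) and 300 bases long as above, with the match in capitals. 
Ccng1 (chr11:40755237-40755536, minus strand): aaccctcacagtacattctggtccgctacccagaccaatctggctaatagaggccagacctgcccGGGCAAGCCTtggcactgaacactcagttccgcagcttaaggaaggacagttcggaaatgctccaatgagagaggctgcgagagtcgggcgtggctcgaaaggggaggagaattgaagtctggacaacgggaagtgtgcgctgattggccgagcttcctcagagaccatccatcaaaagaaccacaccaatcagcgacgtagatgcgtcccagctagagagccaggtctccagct
Aen (chr7:78895677-78895976, plus strand): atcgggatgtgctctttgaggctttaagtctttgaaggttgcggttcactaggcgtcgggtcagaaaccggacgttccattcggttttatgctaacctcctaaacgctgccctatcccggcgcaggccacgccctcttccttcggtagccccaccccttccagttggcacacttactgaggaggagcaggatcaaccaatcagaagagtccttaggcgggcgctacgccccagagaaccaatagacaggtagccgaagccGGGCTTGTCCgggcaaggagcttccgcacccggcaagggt
 This decamer, the repeated unit of the p53 binding site, was searched on both strands. It was matched in 8 of 18 members with a window (44.4%), against 8.63% of tested genes with one. The windows of Phlda3, Dglucy, Fas and Psrc1 held 0 matches, and binding was not measured.

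Of 17 alkylation and base excision repair genes, 3 were higher and 4 lower in A/J after NNK (median 0.0093), shares no larger than the 23% and 29.5% of all genes. Parp1, which senses strand breaks, had levels of 9.30, 9.38 and 9.45 in NNK-treated A/J lungs, against 8.97, 9.03 and 9.11 in NNK-treated C3H lungs, and Alkbh3, which removes methyl groups from bases, 10.27, 10.48 and 10.56 in NNK-treated A/J lungs, against 9.94, 10.003 and 10.10 in NNK-treated C3H lungs. Neither pair of groups overlapped, and the differences were 0.35 ± 0.032 and 0.44 ± 0.046 with NNK against 0.33 ± 0.033 and 0.51 ± 0.038 without. The glycosylase gene Mutyh differed by -0.29 with NNK (-0.25 untreated) and the mismatch repair gene Msh6 by 0.30 with NNK (0.17 untreated). Mgmt, which repairs the methylguanine lesion of NNK, did not pass the test at 0.041 ± 0.063 (adjusted p = 0.605) and 0.02 ± 0.047 untreated, and its sign turned without week 6 (-0.039). Of 28 proliferation genes 1 was higher and 1 lower, with a median of 0.016: Mcm6 at 0.21 and the DNA clamp gene Pcna at -0.26 (0.16 and -0.33 untreated), and the Mcm6 call was lost without the arrays that stood apart.

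Of 13 cytochrome P450 genes, which activate or clear carcinogens, 3 were higher and 3 lower in A/J, near or below the shares of all genes (23% and 29.5%), and 1 was lower without week 6; Cyp2a5, a close relative of the main human NNK-activating enzyme, has no probe set of its own in the probe table and was not analysed here. Cyp1a1, the aryl hydrocarbon receptor target, had levels of 7.77, 8.44 and 9.36 in NNK-treated A/J lungs, against 7.16, 7.34 and 7.62 in NNK-treated C3H lungs, without overlap. It differed 2.23-fold, by 1.15 ± 0.14 with NNK and 0.93 ± 0.15 without, and by 1.89, 0.79, 1.35 and 0.59 at weeks 3 to 12 (adjusted p = 0.0327 for change over weeks). Cyp4b1, abundant in lung, and Cyp4f18 differed by 0.28 with NNK (0.26 untreated) and 0.56 with NNK (0.47 untreated). Cyp2e1, which oxidises nitrosamines, was lower in A/J by a difference of -0.76 ± 0.20 (-0.62 ± 0.18 untreated), with weekly values of -1.39, -0.70, -1.35 and 0.39.

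Of 19 glutathione and glucuronide conjugation genes 9 were higher and 3 lower, beside 23% and 29.5% of all genes. Without the arrays that stood apart 5 were lower. The median was 0.15 against 0.03 untreated. The microsomal transferases Mgst1, Mgst2 and Mgst3 differed by 0.36 with NNK (0.25 untreated), 0.71 with NNK (0.71 untreated) and 0.63 with NNK (0.45 untreated), each without overlap of the groups. Gstm6 had levels of 8.64, 8.82 and 9.44 in NNK-treated A/J lungs, against 7.82, 8.03 and 8.18 in NNK-treated C3H lungs and differed by 0.91 ± 0.086 with NNK and 0.80 ± 0.11 without; Gstm genes are close copies, and their probe sets may share signal. Of 16 carbonyl and aldehyde enzymes 8 were higher and 4 lower (2 lower without week 6). Akr1c14, Cbr3 and Aldh3a1 differed by 0.65 with NNK (0.79 untreated), 0.53 with NNK (0.39 untreated) and 0.49 with NNK (0.43 untreated), and Hsd11b1, a reductase of NNK as well as of steroids, by -0.32 with NNK (-0.36 untreated). Of 16 targets of NRF2, the regulator of antioxidant genes, 10 were higher and 2 lower, with a median of 0.20 against 0.14 untreated. Gclc, which limits glutathione synthesis, Txnrd1, Tkt and Gpx2 differed by 0.42 with NNK (0.22 untreated), 0.25 with NNK (0.26 untreated), 0.41 with NNK (0.24 untreated) and 0.48 with NNK (0.21 untreated).

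Secretory airway cells gave large single-gene differences. Of the 18 club-cell genes tested, 6 were higher and 3 lower in A/J after NNK, beside 23% and 29.5% of all genes. The median strain difference was 0.12 against 0.056 in untreated lungs, where 5 were higher and 4 lower. Without week 6, 1 club-cell gene was lower. Scgb3a2, a secretoglobin, had levels of 11.82, 11.87 and 12.17 in NNK-treated A/J lungs, against 11.27, 11.33 and 11.50 in NNK-treated C3H lungs, without overlap, and differed by 0.57 ± 0.045 against 0.51 ± 0.04 untreated. The keratin gene Krt15, the uroplakin gene Upk3a and the haemoglobin scavenger gene Hp differed by 0.64 with NNK (0.55 untreated), 0.29 with NNK (0.073 untreated) and 0.35 with NNK (0.21 untreated). Of the 12 goblet and mucin genes tested, 5 were higher and 1 lower in A/J after NNK, and the median strain difference was 0.11 against 0.40 in untreated lungs, where 7 were higher and 0 lower. Slc26a4, the anion exchanger pendrin, had levels of 7.96, 8.596 and 8.91 in NNK-treated A/J lungs, against 7.25, 7.48 and 7.69 in NNK-treated C3H lungs, without overlap; it differed by 1.07 ± 0.11 after NNK and 0.50 ± 0.16 untreated (interaction adjusted p = 0.191). Agr2, which folds mucins, differed by 0.78 with NNK (0.55 untreated). Krt1 and other cornified-skin genes were 0.025 in median difference after NNK and 0.82 untreated, the untreated value coming with the A/J arrays of week 6 named above.

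Among immune genes, alveolar macrophage genes were more often lower than higher in A/J. Over all genes tested, 23% were higher and 29.5% lower in A/J after NNK. Of the 18 alveolar macrophage genes tested, 3 were higher and 10 lower in A/J after NNK, and the median strain difference was -0.32 against -0.32 in untreated lungs, where 3 were higher and 10 lower. All 3 higher members reached 1.5-fold after NNK, against 2 of the 10 lower ones, so the larger differences ran in both directions. Siglecf, a surface lectin of these cells, and Atp6v0d2, a proton pump subunit, differed by -0.49 ± 0.04 and -0.65 ± 0.049 with NNK, against -0.31 ± 0.059 and -0.85 ± 0.045 without, and neither gene's groups overlapped after NNK. The macrophage marker Marco lay at 8.12 to 8.41 in A/J and 8.08 to 8.47 in C3H after NNK. Of 12 genes of alternative macrophage activation 2 were higher, Retnla and Ccl8, and 3 lower, among them Chil3 and Retnlg (-0.91 with NNK and -1.01 untreated). Of 14 neutrophil genes 4 were higher and 3 lower (5 lower without the arrays that stood apart, and 5 without week 6); Ltf and Hdc led the first, and Retnlg and Trem3 (-0.35 with NNK and -0.38 untreated) were among the lower ones. The neutrophil marker S100a8 ran from 7.49 to 9.77 in A/J and 7.42 to 8.09 in C3H, its high value being the week 6 array that stood apart.

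Of 19 T and NK cell genes tested, 4 were higher and 9 lower in A/J after NNK, beside 23% and 29.5% of all genes. The median strain difference was -0.12 against -0.20 in untreated lungs, where 4 were higher and 8 lower. Gzma, a granzyme of cytotoxic cells, had levels of 7.66, 7.97 and 9.00 in NNK-treated A/J lungs, against 9.29, 9.71 and 9.88 in NNK-treated C3H lungs, without overlap, and differed by -1.53 ± 0.15 with NNK and -1.46 ± 0.18 without. Prf1, the pore protein of the same granules, and the transcription factor gene Lef1 differed by -0.56 with NNK (-0.57 untreated) and -0.36 with NNK (-0.29 untreated), while Cd8a was higher at 0.45 with NNK (0.51 untreated). Of 18 B and plasma cell genes 2 were higher and 2 lower, and 7 were higher without the arrays that stood apart; Fcer2a and Pax5 differed by 0.54 with NNK (0.91 untreated) and 0.38 with NNK (0.70 untreated), and the plasma cell genes Xbp1 and Derl3 by -0.31 with NNK (-0.40 untreated) and -0.40 with NNK (-0.55 untreated). The Pax5 call (adjusted p = 0.0443) was lost in 12 of 16 fits that left out 1 array and that of Fcer2a (0.0276) in 7 of 16. The highest adjusted p over the alternatives was 0.0873 for Pax5 and 0.0614 for Fcer2a. Of the 18 MHC class I and peptide loading genes tested, 12 were higher and 1 lower in A/J after NNK, and the median strain difference was 0.19 against 0.21 in untreated lungs, where 9 were higher and 2 lower. The immunoproteasome subunits Psmb8 and Psmb9 differed by 0.61 with NNK (0.43 untreated) and 0.50 with NNK (0.42 untreated), and the class I gene H2-Q10 by 0.49 with NNK (0.63 untreated). Of 9 MHC class II genes 5 were lower and 0 higher in A/J, with H2-Eb1, H2-Ab1 and H2-Aa at -0.29, -0.23 and -0.17 (-0.36, -0.23 and -0.23 untreated), and 3 were lower without week 6, when the H2-Aa call was lost. The strains differ in some MHC class I alleles, to which the class I probes may bind unequally. Probe binding was not tested for any of these genes.

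Of the genes of the interferon response, by which cells resist viruses, more were lower than higher in A/J. Of the 26 interferon-stimulated genes tested, 6 were higher and 13 lower in A/J after NNK, beside 23% and 29.5% of all genes. At least 1.5-fold was reached by 2 of the higher and 3 of the lower members. The 4 members named here, taken by p, were all lower ones. The median strain difference was -0.19 against -0.31 in untreated lungs, where 4 were higher and 16 lower. Oas2, an antiviral RNA-sensing synthetase, had levels of 8.46, 9.21 and 9.59 in NNK-treated A/J lungs, against 9.79, 10.05 and 10.44 in NNK-treated C3H lungs, without overlap. It differed by -1.06 ± 0.082 after NNK and -1.51 ± 0.061 untreated, with an interaction of 0.44 ± 0.11 that missed the threshold (adjusted p = 0.0588). Ifit3, Ifih1 and Oas1a differed by -0.69 with NNK (-0.77 untreated), -0.41 with NNK (-0.41 untreated) and -0.50 with NNK (-0.64 untreated). 22 of the 26 had a more positive difference with NNK, against 58.7% of all genes. In limma 0 passed the test of that difference, and 5 were under 0.05 unadjusted, beside 2373 of all 14953 genes. Of 17 complement genes 2 were higher, C4b and the decay factor Cd55 (0.43 with NNK and 0.56 untreated), and 6 lower, among them Masp1 (-0.68 with NNK and -0.71 untreated). Of 26 chemokine genes 5 were higher and 10 lower (3 higher without week 12). Cxcl17, a chemokine of mucosal epithelium, had levels of 10.09, 10.47 and 10.69 in NNK-treated A/J lungs, against 9.27, 9.43 and 9.59 in NNK-treated C3H lungs and differed by 0.999 ± 0.066 against 0.71 ± 0.061 untreated, without overlap after NNK. Ccl19, which guides T cells and dendritic cells, Cxcl14 and Cx3cl1 were lower by differences of -0.70, -0.75 and -0.39 (-0.75, -0.83 and -0.44 untreated). In the acute-phase list, Lbp, which presents bacterial lipopolysaccharide, was lower at -0.78 with NNK (-0.83 untreated) and Orm1 higher at 0.48 with NNK (0.19 untreated), a call lost without week 6 and without week 12 (adjusted p of up to 0.0944).

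Vessel and matrix genes were mixed, with a lean towards C3H in lymphatic and matrix genes. Among all genes tested, 23% were higher and 29.5% lower in A/J after NNK. Of 23 blood endothelial genes 5 were higher and 6 lower, shares no larger than those of all genes. Kdr, the main VEGF receptor, differed by 0.42 ± 0.046 with NNK and 0.42 ± 0.042 without. Vwf and Ramp2 differed by -0.53 with NNK (-0.68 untreated) and -0.44 with NNK (-0.49 untreated). Without the arrays that stood apart, 10 blood endothelial genes were lower and 3 higher. Of 7 lymphatic endothelial genes 5 were lower and 1 higher, with a median of -0.26 against -0.42 untreated; Mmrn1 and Reln differed by -0.78 with NNK (-1.12 untreated) and -0.37 with NNK (-0.54 untreated). Of the 27 matrix genes tested, 3 were higher and 12 lower in A/J after NNK, and the median strain difference was -0.12 against -0.11 in untreated lungs, where 3 were higher and 11 lower. Col6a3, the microfibril gene Mfap5 and the elastic fibre gene Fbln5 differed by -0.44 with NNK (-0.47 untreated), -0.59 with NNK (-0.88 untreated) and -0.22 with NNK (-0.35 untreated), while Col4a1 of basement membrane was higher at 0.32 with NNK (0.35 untreated). Of 16 genes downstream of MAPK signalling, which carries growth factor signals, 6 were higher and 3 lower. Hbegf, a ligand of the EGF receptor, had levels of 9.96, 10.30 and 10.44 in NNK-treated A/J lungs, against 11.27, 11.47 and 11.54 in NNK-treated C3H lungs and was lower by a difference of -1.19 ± 0.066 (-1.29 ± 0.05 untreated), without overlap. Ccnd1, cyclin D1, had levels of 12.15, 12.26 and 12.54 in NNK-treated A/J lungs, against 11.51, 11.82 and 11.97 in NNK-treated C3H lungs, and differed by 0.51 ± 0.064 after NNK and 0.19 ± 0.061 untreated (interaction adjusted p = 0.112); Spry1 and Spry2, feedback inhibitors, differed by 0.24 with NNK (0.18 untreated) and 0.28 with NNK (0.17 untreated).

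At the Pas1 susceptibility locus, 10 genes could be tested and 4 were higher in A/J after NNK, with 0 lower and a median of 0.061. Over all genes tested, 23% were higher and 29.5% lower. Casc1, a Pas1 candidate gene, had levels of 7.92, 8.17 and 8.34 in NNK-treated A/J lungs, against 7.61, 7.72 and 7.85 in NNK-treated C3H lungs. Its groups did not overlap after NNK, and the difference was 0.43 ± 0.055 (adjusted p = 1.35e-05) against 0.13 ± 0.079 untreated (adjusted p = 0.207); the test between them gave 0.30 ± 0.10 at an adjusted p of 0.158. Lrmp, a lymphoid membrane protein gene of the same interval, had levels of 8.22, 8.34 and 8.52 in NNK-treated A/J lungs, against 7.82, 7.98 and 8.08 in NNK-treated C3H lungs and differed by 0.38 ± 0.044 with NNK and 0.47 ± 0.051 without. Sspn, sarcospan, and Etnk1, ethanolamine kinase, differed by 0.27 ± 0.049 and 0.19 ± 0.031 with NNK, against 0.30 ± 0.055 and 0.16 ± 0.042 without. The other tested members did not pass: Sox5 at 0.094, Bhlhe41 at -0.19, Rassf8 at 0.025, Golt1b at 0.028, Fgfr1op2 at 0.014 and Itpr2 at 0.0081. Rassf8 passed with the mean of all probe sets of a gene (0.14) and Sox5 without week 12 (0.15).

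The NNK strain difference varied over the weeks for 43 genes (0.288%) in limma's F test of strain by week; 2427 were under 0.05 unadjusted. They included 8 of 16 clock genes and 5 of 7 fat genes. Arntl, the clock activator, had weekly A/J minus C3H differences of 1.78, 0.20, 0.15 and 0.27 (SE 0.07 each; adjusted p = 3.08e-05) after NNK and 1.61, 0.11, 0.58 and 0.10 untreated. Both A/J arrays of week 3 held the high values, 9.72 and 9.57, against 7.60 to 7.89 in NNK-treated C3H lungs. The clock output genes Dbp and Hlf and the repressor Per1, which peak at another time of day than Arntl, ran the other way at week 3, with -1.70, -1.87 and -1.97 after NNK and -2.50, -1.98 and -1.83 untreated. The hour at which lungs were taken was not given in the sources used here, and its part in the week 3 differences was not tested. Tspan4, a tetraspanin gene, shared the pattern with -0.99, 0.23, 0.28 and -0.07 after NNK and -0.94, -0.061, 0.024 and 0.052 untreated. Saa3, an acute-phase protein gene, was C3H-high at week 3 and A/J-high at week 6 after NNK (-4.72, 3.26, 0.41 and 1.08). The 2 NNK arrays of week 3 had 7.71 and 7.94 in A/J against 13.33 and 11.76 in C3H. High Saa3 was also seen without NNK, as untreated levels ran from 7.51 to 12.32 in A/J and 7.50 to 8.34 in C3H. Among the fat genes, Plin1, which coats lipid droplets, stood at 0.065, 0.40, -0.32 and 1.60. Leaving out single arrays gave 17 calls (without C3H NNK week 6 array 2) to 345 (without C3H NNK week 3 array 2).

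**Figure D5:**
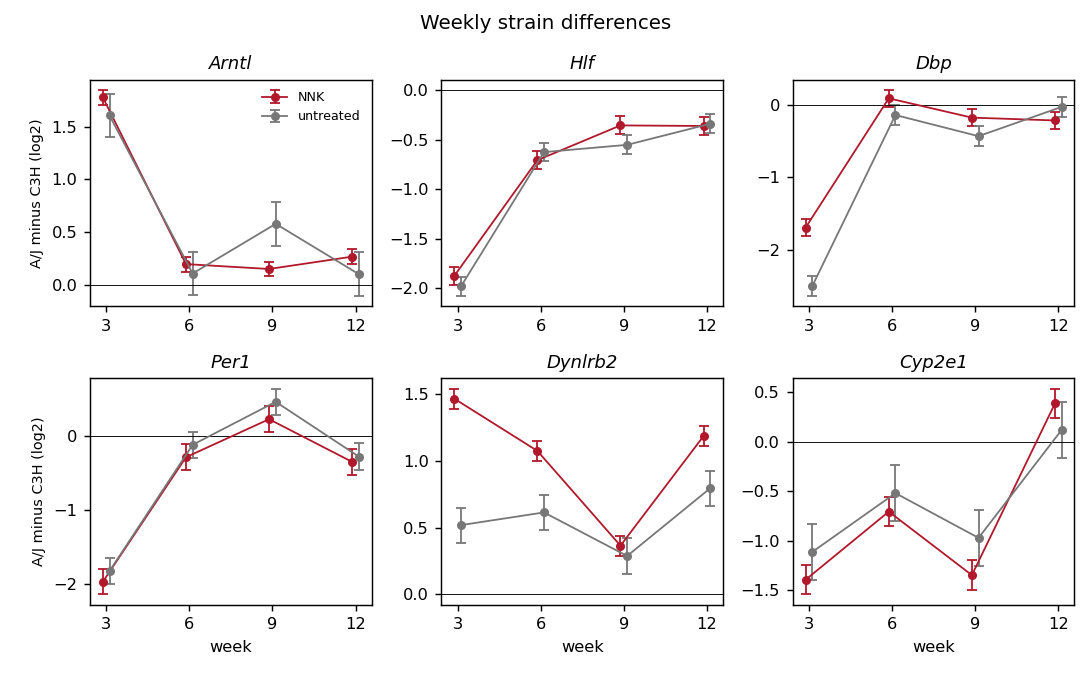
A/J minus C3H difference (log2) at weeks 3, 6, 9 and 12 in NNK-treated (red) and untreated (grey) lungs for 6 genes; points are weekly differences over 2 arrays per strain and bars are the standard error of the fit. Arntl, Hlf, Dbp and Per1 depart from 0 most at week 3 in both settings, Dynlrb2 is above its untreated value at weeks 3, 6, 9 and 12, and Cyp2e1 turns sign at week 12.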

How the data were processed

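RNA from mouse lungs was measured on 36 Affymetrix arrays in 18 groups of 2. The deposited values are intensities per probe set which, per the submitters' processing notes, came from the PLIER method of the Affymetrix Expression Console; versions, normalization and build are not given in the sources used here. Of 35556 probe sets, 21789 had 1 gene symbol, 1621 had several and 12146 had none; the last 2 kinds were left out. The deposited intensities were taken as log2(value + 16) and quantile-normalized across arrays. Genes below the 25th percentile of mean level (7.54) were left out, which kept 14953 of 19938. Differences were fitted with limma 3.58.1 in R 4.3.3: week as a block for NNK-treated and for untreated lungs, strain by treatment with week within treatment over 32 arrays, and strain by week over 16. P-values were Benjamini-Hochberg adjusted over all genes tested at 0.05, and 1.5-fold was a further rule. Scripts were tested on simulated data.

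Named genes were the 12 largest called differences in each direction with 1 sign in all 4 weeks, the 8 largest interactions in each direction, 5 with opposite signs, 5 varying most over weeks, up to 4 per list by p, and Pas1 and other fixed genes; further genes were added after their values were seen. The members and lists were chosen with earlier results of these data known. Promoter windows are from RefSeq (GRCm38.p6). Alternatives covered normalization, pseudocount, filter, probe-set choice, variance models, the replicate block and left-out weeks or arrays.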

Additional observations from a re-analysis of the deposited data

Results flagged for a closer look

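In 366 groups of 8 NNK arrays, 1 gene and 1 strain at a time, 23 had an array whose gap to the others exceeded Dixon's 95% critical value for 8 values; chance gives about 1 in 20, or 18.3. NNK-treated C3H week 3 array 1 was high for Bst1 at 10.86, C4b at 10.33, Krt14 at 8.74 and Upk1b at 10.98 and was low for Rsph1 at 7.78, Snora33 at 6.86 and Sspn at 8.90. NNK-treated A/J week 6 array 1 was high for Col4a1 at 11.28, Col4a3 at 10.37 and Retnlg at 10.002 and was low for Cyp4b1 at 12.47, Fcer2a at 8.08 and Pax5 at 7.97. NNK-treated C3H week 6 array 1 was low for Bpifb1 at 8.25 and Igkv4-91 at 7.27. NNK-treated C3H week 9 array 1 was high for Golt1b at 10.86 and was low for Kdm5d at 7.36. NNK-treated A/J week 9 array 2 was high for Lss at 9.84 and was low for Gpr141b at 7.10. NNK-treated A/J week 3 array 2 was low for Lbp at 10.44 and Rspo1 at 8.81. NNK-treated A/J week 9 array 1 was high for Cd8a at 8.73. NNK-treated C3H week 6 array 2 was low for Insig1 at 10.27.

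The A/J minus C3H difference with NNK differed from that without in 46 genes by limma's interaction test (adjusted p under 0.05). The values below are the difference with NNK minus the difference in untreated lungs, on the log2 scale. The largest were Retnla 1.47, Clca3b 1.06, Alkal1 0.67, Ccl8 0.62, C6 0.59, Hdc 0.58, Chil3 0.58, Pifo 0.57, Klk13 0.57, Plcd4 0.56, Cpn1 0.52, Fabp5 0.50, Cd59b 0.47, Muc4 0.47 and Phlda1 0.45. A middle group held Tlcd4 0.45, Lrrc23 0.44, Morn2 0.44, Ccdc189 0.44, Chia1 0.43, Rragd 0.43, Erich2 0.43, Ros1 0.43, Idi1 0.42, Zfp418 0.42, Phlda3 0.39, Nme5 0.38, Cideb 0.37, Vcpkmt 0.36 and Stk32a 0.34. The smallest positive values were Msmo1 0.34, Phlda2 0.31, Sc5d 0.30, Piwil4 0.29, Cep95 0.29, Adamdec1 0.29, Prom1 0.29, Fam216a 0.29, Gnaz 0.28, Ccdc58 0.27, Rnpep 0.27, Chil1 0.25, Mtmr4 0.24 and Ttc39a 0.23. The negative values were Sphk1 -0.24 and Col6a4 -0.37.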

How the results depend on the processing

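Counts of strain differences with NNK ran from 5821 (filter at the 50th percentile) to 8795 (no filter) over the alternatives, and from 7240 to 7837 when single arrays were left out, against 7842. The 24 genes named for the largest differences kept their call wherever they were tested. The interaction count of 46 depended on the setting: 77 without quantile normalization, 80 with trended and robust variances, 145 with array weights, 169 with 18 group means over all 36 arrays, 2 without week 6, 2 without the arrays that stood apart and 0 without week 12, and 11 to 444 when single arrays were left out. The 43 genes that varied over weeks became 24 with no filter, 108 with the filter at the 50th percentile, 163 with trended and robust variances and 144 with 18 group means, and 17 to 345 when single arrays were left out. The cause was not tested. Leaving out the arrays that stood apart, and leaving out week 12, were chosen after seeing the data.

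With the replicate number as a block (replicate block), the interaction count was 4, the weekly count 16 and the NNK count 7545. The numbers do not pair the samples: deviations of same-numbered arrays correlated across genes at 0.21, 0.068, 0.0079 and -0.059 in NNK-treated and -0.165, -0.0099, 0.051 and -0.018 in untreated lungs at weeks 3, 6, 9 and 12.

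Signs turned in uncalled genes: Fgfr1op2 at -9.1e-06 with array weights and -0.0069 to 0.030 when single arrays were left out, Itpr2 at -0.0033 to 0.030 when single arrays were left out, Golt1b at -0.015 and Mgmt at -0.039 without week 6, and Pck1 at -0.087 without week 12. Of the named-gene results under alternatives, 5487 kept direction and side of the threshold, 257 lost the call, 54 gained it and 10 changed sign. With 2 arrays per strain and week, the number of arrays limits precision.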
